A study of Macaca fascicularis with 8 samples.

Results

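The 10 genes described here encode some of the transporters and isoenzymes that bring glucose into a pluripotent cell and carry it to lactate. The members are SLC2A1, SLC2A3, HK1, HK2, PFKP, PFKM, ALDOC, PKM, LDHA and LDHB. They were taken by name from the 33121 genes of a deposited RPKM table (reads per kilobase of gene per unit of library depth), and all 10 were found and passed the filter on low values that 15597 genes passed. SLC2A1, SLC2A3 and PFKM were named by the table itself. The other 7 members were found through the protein that the table gave as the best match, with an identity of 94.0% for PFKP and of at least 99.5% for the rest.

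Polyadenylated RNA came from embryonic stem cells (ESCs) of the cynomolgus monkey (Macaca fascicularis), in 4 dome-shaped and 4 primed libraries. Dome-shaped ESCs form raised colonies, were labelled as strong in passage as single cells, and were grown in a medium named NHSMV. It held insulin at 12.5 μg/ml, LIF at 10 ng/ml, bFGF at 8 ng/ml, TGF-β1 at 1 ng/ml, vitamin C at 50 μg/ml and glutamine at 1 mM. Its kinase inhibitors were PD0325901 at 1 μM (against MEK), CHIR99021 at 3 μM (against GSK3), SB202190 at 5 μM and SB203580 at 10 μM (both against p38), and SP600125 at 10 μM (against JNK). Primed ESCs formed flat colonies, were labelled as weak in single-cell passage, and were grown in CESM, a mixture of a conventional monkey ESC medium and a commercial human stem cell medium. No genetic change is recorded for either group. The glucose content of the media is not given in the sources used here. Medium, colony shape and group coincide and cannot be told apart, and the labels do not say that the libraries came from separate cultures or animals, so p-values measure only the spread between these libraries. The sample titles carry a number after the letters CES, which is 1, 1, 2 and 3 for dome-shaped replicates 1 to 4 and 1, 2, 3 and 3 for primed replicates 1 to 4. What it marks is not stated. If it marks a cell line, the 4 libraries of each group came from 3 lines, with 2 libraries from 1 of them. The titles of dome-shaped replicates 1 and 2 also carry P15 and P26, in that order. Those of dome-shaped replicate 4 and primed replicate 4 both carry 12. What these tags mark is not stated either, and they were not used in the fits.

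Glucose enters cells through facilitative transporters of the SLC2A (GLUT) family and is trapped by phosphorylation by hexokinase. Phosphofructokinase commits it to glycolysis, aldolase splits the sugar, and pyruvate kinase makes pyruvate, which lactate dehydrogenase converts to and from lactate. Most of these steps have several isoenzymes encoded by separate genes, which differ in affinity, regulation and tissue. Pluripotent stem cells are known for a high glycolytic flux, and pluripotent states are known to differ in their balance of glycolysis and respiration.

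The libraries held 14400000 to 17680000 implied reads in the dome-shaped group and 16360000 to 18080000 in the primed group. A member had between 85.8 implied reads (PFKP) and 41904 implied reads (PKM) in a single library, so counting noise was small beside the spread between libraries. On the first principal component of all tested genes, dome-shaped replicates 1 to 3 lay between 40.7 and 41.1, dome-shaped replicate 4 lay at 9.92 and the primed libraries lay between -37 and -28.6. Dome-shaped replicate 4 was thus nearest to the primed libraries, and the value without it is given for each member. Of 10 pluripotency markers found, all were detected in both groups. Their summed level was 2199.8 to 3386 RPKM in dome-shaped libraries and 3450.1 to 4101 RPKM in primed libraries, with 0 called higher and 5 called lower (DPPA4, TDGF1, ZFP42, DNMT3B and TERF1). Of all genes tested, 7.96% were called lower. Among the markers not called, SOX2 had a log2 fold change of 0.27, SALL4 one of -0.10 and LIN28A one of -0.33. NANOG (-0.75, limma adjusted p = 0.0836) and L1TD1 (-0.71, limma adjusted p = 0.0795) were lower without overlap but not called. LIN28A, also not called, made up the largest part of the sums. The lower marker levels lie in the same direction as the 2 lower members below and opposite to LDHA. Their part in any result was not tested.

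Across the 10 members, LDHA rose in dome-shaped ESCs and SLC2A1 and HK1 fell, while 7 members did not pass the test. Calls are from limma on log2(RPKM + 1) with Benjamini-Hochberg adjustment over all 15597 genes and a threshold of 0.05. Among all genes tested, 6.38% were called higher and 7.96% lower in dome-shaped ESCs, or 14.3% in either direction. With 10 members, the count of 3 called was not set apart from that share by a test. The groups did not overlap for 3 members of 10, against 22.2% of all genes tested. The members' median log2 fold change was -0.22, with 8 of 10 below 0, beside a median of 0.03 over all genes. In RNA from whole cultures, fewer cells of a type and less RNA per cell cannot be told apart.

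**Figure D1:**
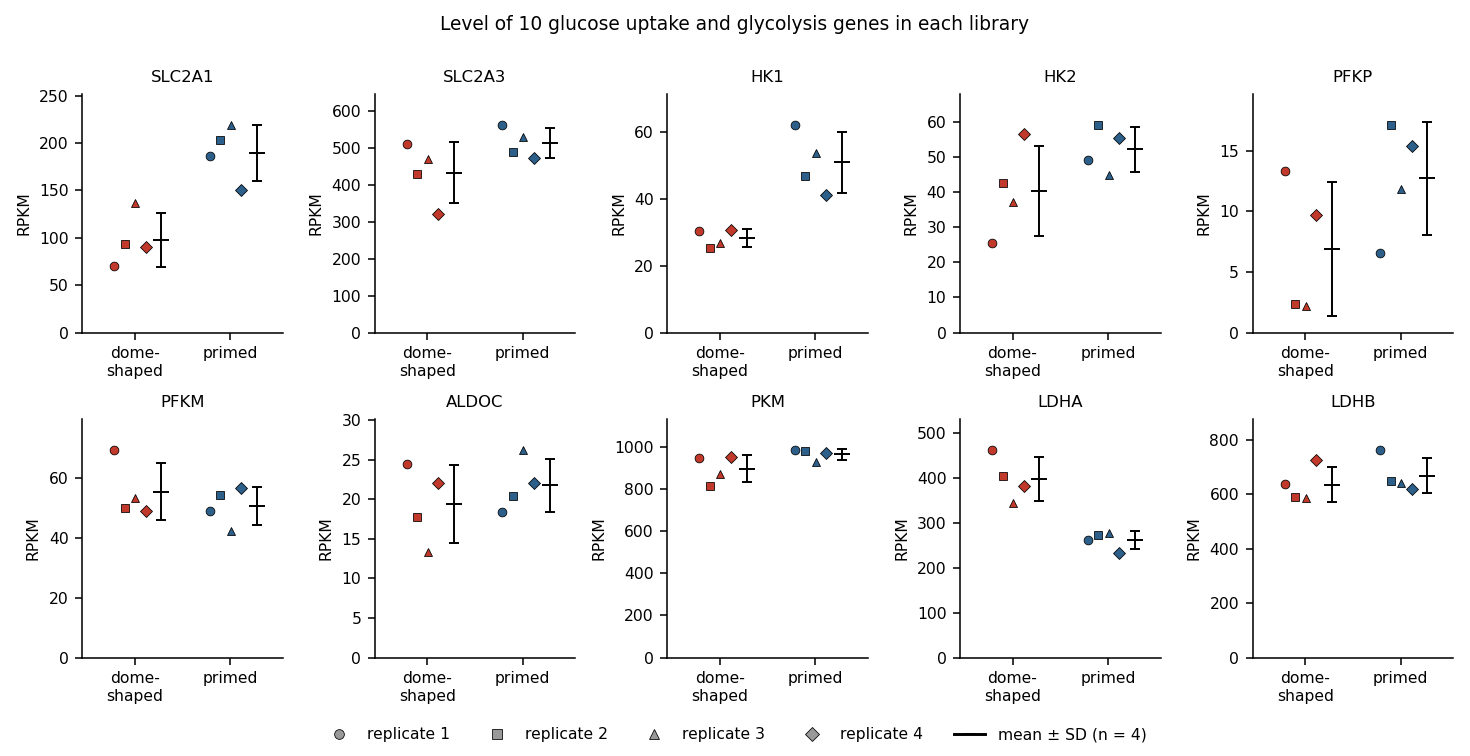
RPKM of each of the 10 genes in each library, with dome-shaped libraries in red on the left and primed libraries in blue on the right of each panel; symbols mark the replicate number, and the bars give mean ± SD (n = 4). SLC2A1 and HK1 lie lower in every dome-shaped library than in any primed library, LDHA lies higher in every one, and the groups overlap for the other 7 genes.

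SLC2A1 (GLUT1, identifier ENSMMUG00000000373), the widely expressed transporter for basal glucose uptake, had 70.2, 93.0, 137 and 90.1 RPKM in dome-shaped libraries, against 186, 203, 219 and 150.3 RPKM in primed libraries. The highest dome-shaped library, replicate 3, stayed below the lowest primed one, replicate 4. SLC2A1 averaged 97.5 ± 28.0 RPKM in dome-shaped ESCs and 189.7 ± 29.4 RPKM in primed ESCs (SD, n = 4 each), a log2 fold change of -0.98 (SE 0.19, 95% interval -1.41 to -0.55, limma adjusted p = 0.0122). Without dome-shaped replicate 4 the log2 fold change was -0.96 (limma adjusted p = 0.0201).

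SLC2A3 (GLUT3), a high-affinity transporter known from neurons and embryos, had 511, 429.8, 469.6 and 319.6 RPKM in dome-shaped libraries, against 561, 488, 529 and 472 RPKM in primed libraries. Dome-shaped replicate 1 lay within the primed range and replicate 4 lay far below it, so the groups overlapped. The log2 fold change of SLC2A3 was -0.26 (SE 0.14, 95% interval -0.57 to 0.05, limma adjusted p = 0.224), and leaving out 1 library gave -0.35 (without dome-shaped replicate 1) to -0.12 (without dome-shaped replicate 4). SLC2A3 was the more abundant of the pair in all 8 libraries. The summed level of SLC2A1 and SLC2A3 was 530 ± 87.5 RPKM in dome-shaped ESCs and 702 ± 59.6 RPKM in primed ESCs (SD, n = 4 each). These sums did not overlap, with at most 606 RPKM in dome-shaped libraries and at least 622 RPKM in primed ones.

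HK1 (ENSMMUG00000015302), the broadly expressed hexokinase, had 30.6, 25.5, 26.8 and 30.8 RPKM in dome-shaped libraries, against 62.2, 46.8, 53.9 and 41.2 RPKM in primed libraries. The dome-shaped values lay close together, and all were below the lowest primed value. HK1 averaged 28.5 ± 2.68 RPKM in dome-shaped ESCs and 51.0 ± 9.09 RPKM in primed ESCs (SD, n = 4 each). Its log2 fold change of -0.81 (SE 0.13, 95% interval -1.10 to -0.52) had the smallest adjusted p of the 10 members (limma, adjusted p = 0.00618). Without dome-shaped replicate 4 it was -0.85.

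HK2, the hexokinase known as inducible by insulin and hypoxia, had 25.6, 42.6, 37.1 and 56.5 RPKM in dome-shaped libraries, against 49.2, 59.1, 45.0 and 55.4 RPKM in primed libraries. Dome-shaped replicates 1 to 3 lay below the primed range and replicate 4 lay inside it. For HK2 the log2 fold change was -0.41 (SE 0.21, 95% interval -0.87 to 0.06, limma adjusted p = 0.213). It moved both ways with a single library, to -0.21 without dome-shaped replicate 1 (limma adjusted p = 0.385) and to -0.58 without dome-shaped replicate 4 (limma adjusted p = 0.052). The summed level of HK1 and HK2 was 68.9 ± 13.3 RPKM in dome-shaped ESCs and 103 ± 6.77 RPKM in primed ESCs (SD, n = 4 each), with ranges of 56.2 to 87.3 RPKM and 96.6 to 111 RPKM that did not overlap.

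The phosphofructokinases included the most variable member. PFKP, the platelet-type subunit, had 13.3, 2.33, 2.17 and 9.72 RPKM in dome-shaped libraries, against 6.52, 17.1, 11.8 and 15.4 RPKM in primed libraries. Dome-shaped replicates 2 and 3 lay well below every other library, while replicates 1 and 4 fell within the primed range. The coefficient of variation of PFKP was 80.7% in dome-shaped and 36.9% in primed libraries, the highest of the 10 members in both groups. Its log2 fold change of -1.04 was the largest in size among the members, yet its 95% interval ran from -2.20 to 0.13 (SE 0.52, limma adjusted p = 0.202). Over fits that left out 1 library each, the value ranged from -1.43 (without dome-shaped replicate 1) to -0.70 (without dome-shaped replicate 3) and was called in 0 of 8. Without dome-shaped replicate 4 it was -1.29.

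PFKM, the muscle-type phosphofructokinase subunit, had 69.5, 50.0, 53.6 and 49.2 RPKM in dome-shaped libraries, against 49.2, 54.5, 42.5 and 56.8 RPKM in primed libraries. Dome-shaped replicate 1 was the highest library, and the other dome-shaped values lay within the primed range. PFKM had a log2 fold change of 0.12 (SE 0.13, 95% interval -0.17 to 0.42, limma adjusted p = 0.556). Leaving out dome-shaped replicate 1 gave 0.01, primed replicate 3 gave 0.04, and dome-shaped replicate 4 gave 0.18. With PFKL, the liver-type subunit and no member of the group, the summed phosphofructokinase level was 149 ± 30.9 RPKM in dome-shaped and 156 ± 17.9 RPKM in primed ESCs (SD, n = 4 each), and the groups overlapped.

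ALDOC, the aldolase known from brain, had 24.5, 17.8, 13.3 and 22.0 RPKM in dome-shaped libraries, against 18.4, 20.4, 26.2 and 22.0 RPKM in primed libraries. The groups overlapped over most of their range. Its log2 fold change was -0.18 (SE 0.18, 95% interval -0.60 to 0.23, limma adjusted p = 0.536). Leaving out 1 library took it to -0.02 (dome-shaped replicate 3 left out), -0.09 (primed replicate 3), -0.30 (dome-shaped replicate 1) or -0.25 (dome-shaped replicate 4). ALDOC is also a known astrocyte marker. Of 6 astrocyte markers 5 were found, with GFAP, AQP4 and S100B under 1 RPKM in every library. Their summed level was 5.79 to 14.3 RPKM in dome-shaped and 6.5 to 12 RPKM in primed libraries. Most of each sum was SLC1A3, which had 5.06 to 11.2 RPKM over the libraries and was not called (log2 fold change 0.25, limma adjusted p = 0.552). SLC1A2 was below the filter on low values and reached 2.95 RPKM in dome-shaped replicate 2. ALDOA, the aldolase of most tissues, carried most of the aldolase transcript, at 28.5 ± 6.75 times ALDOC in dome-shaped and 26.3 ± 2.58 times in primed libraries (SD, n = 4 each).

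PKM, which encodes both the M1 and the M2 form of pyruvate kinase by alternative splicing, was the most abundant member. It had 949, 816, 872 and 951 RPKM in dome-shaped libraries, against 985, 981, 928 and 970 RPKM in primed libraries. The groups overlapped through dome-shaped replicates 1 and 4, and the primed values were the tighter set. PKM had a log2 fold change of -0.11 (SE 0.07, 95% interval -0.27 to 0.05, limma adjusted p = 0.33), against -0.06 when dome-shaped replicate 2 was left out and -0.14 when replicate 4 was. The table gives levels per gene, so the balance of the M1 and M2 forms was not analysed here. Of 5 tested splicing factors known to act on PKM, 0 were called. PTBP1, a repressor of the exon of the M1 form, averaged 485 ± 83.4 RPKM in dome-shaped and 531 ± 24.8 RPKM in primed ESCs (SD, n = 4 each; log2 fold change -0.15, limma adjusted p = 0.44).

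LDHA (ENSMMUG00000031024), the subunit of the lactate dehydrogenase form known to favour the making of lactate, had 462, 404, 344 and 381 RPKM in dome-shaped libraries, against 262, 273, 277 and 232 RPKM in primed libraries. Every dome-shaped library was higher than every primed one, with replicate 3 the lowest of the dome-shaped libraries. LDHA averaged 398 ± 49.4 RPKM in dome-shaped ESCs and 261 ± 20.3 RPKM in primed ESCs (SD, n = 4 each), a log2 fold change of 0.60 (SE 0.10, 95% interval 0.38 to 0.82, limma adjusted p = 0.00704). Without dome-shaped replicate 4 the log2 fold change was 0.62 (limma adjusted p = 0.00876).

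LDHB, the subunit of the heart-type lactate dehydrogenase, had 639, 591, 586 and 726 RPKM in dome-shaped libraries, against 763, 651, 643 and 620.4 RPKM in primed libraries. The groups overlapped, with dome-shaped replicate 4 above all primed libraries but replicate 1. The log2 fold change of LDHB was -0.08 (SE 0.09, 95% interval -0.29 to 0.14, limma adjusted p = 0.622). Leaving out 1 library gave -0.14 (without dome-shaped replicate 4) to -0.01 (without primed replicate 1). The summed level of LDHA and LDHB was 1033 ± 86.2 RPKM in dome-shaped ESCs and 931 ± 70.9 RPKM in primed ESCs (SD, n = 4 each), and the groups overlapped. Lactate dehydrogenase genes have many near-identical copies, so their rows may share reads. LDHA matched 4 further rows, of which 1 was tested, at 4.59 RPKM in dome-shaped and 2.77 RPKM in primed ESCs (log2 fold change 0.60, limma adjusted p = 0.128). LDHB matched 5 further rows, of which 4 were tested and 0 called. PKM matched 1 further row, which averaged 0.0653 RPKM. Summing all rows of a member left the calls at 1 higher and 2 lower.

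**Figure D2:**
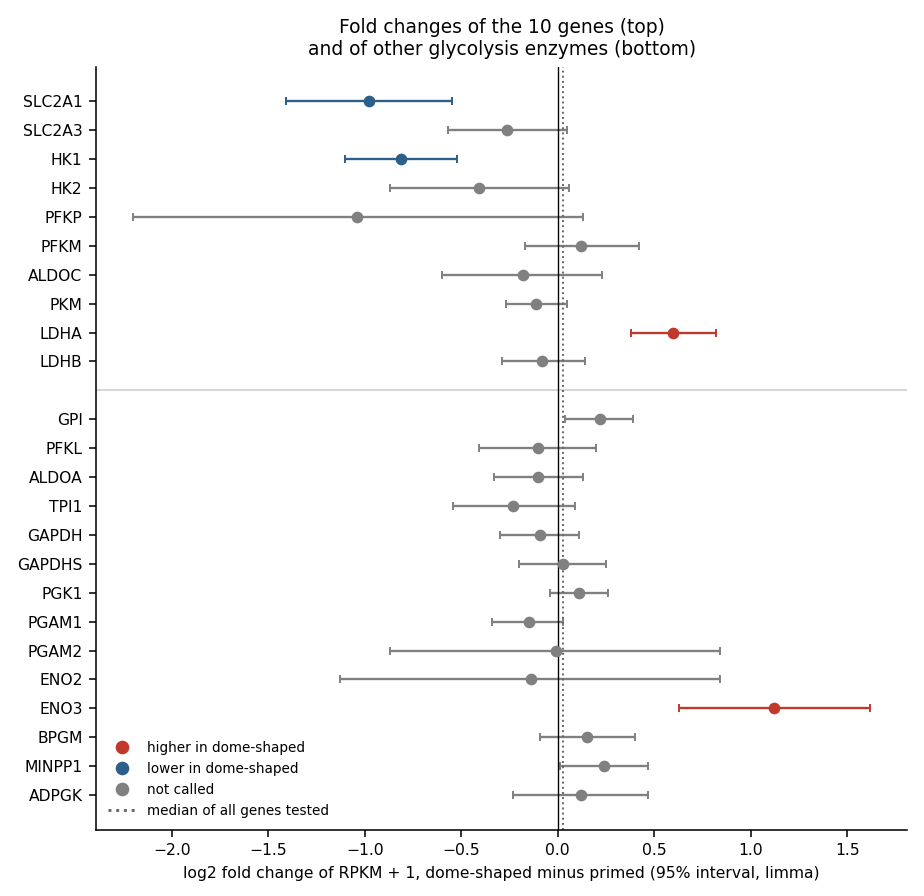
Log2 fold change of RPKM + 1, dome-shaped minus primed, with its 95% interval from limma, for the 10 genes (above the line) and for 14 other tested glycolysis enzymes (below it); red marks genes called higher in dome-shaped ESCs, blue genes called lower, grey genes not called, and the dotted line the median of all tested genes, 0.03. SLC2A1 and HK1 lie to the left, LDHA and ENO3 to the right, and PFKP has the widest interval of the 10.

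All 3 calls held in each of the 8 fits that left out 1 library, with log2 fold changes of -1.16 to -0.84 for SLC2A1, -0.90 to -0.71 for HK1 and 0.53 to 0.67 for LDHA. They also held in the 9 other settings tried. None of the other 7 members was called in any of these fits.

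Within a library, the isoenzymes of a step can be set against each other as a ratio of RPKM values, which are per length. These ratios are given as values with no test. LDHA over LDHB was 0.722, 0.684, 0.587 and 0.525 in dome-shaped libraries, against 0.344, 0.42, 0.43 and 0.374 in primed libraries. LDHB was the more abundant subunit in every library, and the ratio was higher in all 4 dome-shaped libraries, without overlap (0.63 ± 0.0898 in dome-shaped and 0.392 ± 0.0404 in primed ESCs, SD, n = 4 each).

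SLC2A3 over SLC2A1 was 7.28, 4.62, 3.44 and 3.55 in dome-shaped libraries, against 3.01, 2.4, 2.42 and 3.14 in primed libraries. The groups did not overlap, with dome-shaped replicate 1 far above the rest and replicates 3 and 4 just above primed replicate 4. HK2 over HK1 was 0.834, 1.67, 1.38 and 1.83 in dome-shaped libraries, against 0.791, 1.26, 0.835 and 1.35 in primed libraries. Those groups overlapped, and both held libraries with more HK1 than HK2. PFKM over PFKP was 5.21, 21.5, 24.7 and 5.06 in dome-shaped libraries, against 7.55, 3.19, 3.59 and 3.68 in primed libraries, so PFKM exceeded PFKP in every library. The high values were those of dome-shaped replicates 2 and 3, where PFKP was lowest, and the groups overlapped. PFKL, not a member, exceeded PFKM in every library. PFKL over PFKM was 1.6, 1.46, 1.63 and 1.53 in dome-shaped libraries, against 1.76, 1.68, 2.03 and 1.86 in primed libraries, without overlap.

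**Figure D3:**
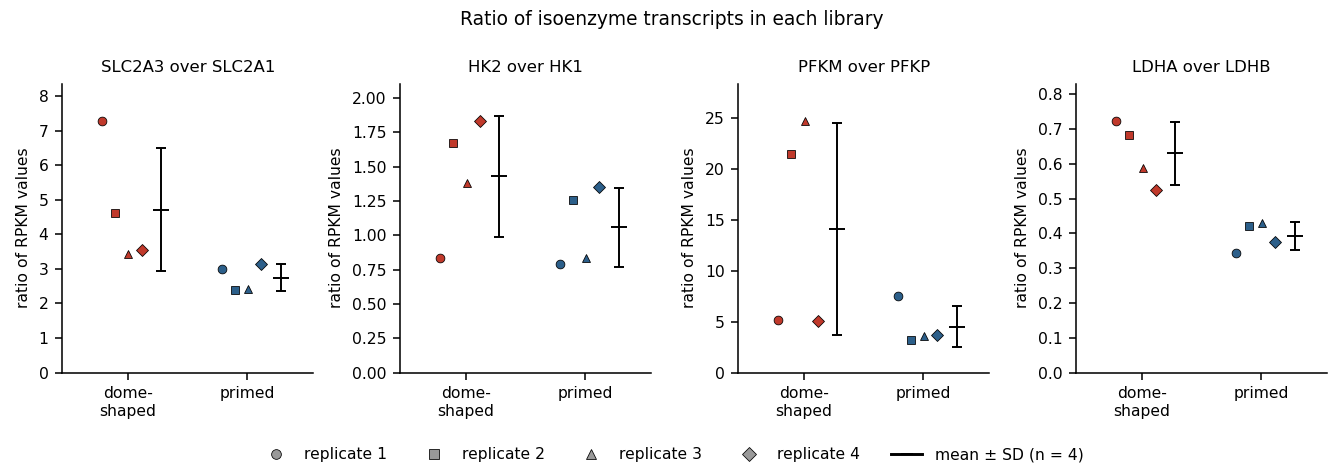
Ratio of RPKM values of isoenzyme pairs in each library, dome-shaped in red on the left and primed in blue on the right, with symbols for the replicate number and bars for mean ± SD (n = 4). The ratios SLC2A3 over SLC2A1 and LDHA over LDHB are higher in all dome-shaped libraries than in any primed library, while HK2 over HK1 and PFKM over PFKP overlap.

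Ordered by mean level per length, both groups ran from PKM through LDHB, SLC2A3 and LDHA to SLC2A1. In dome-shaped ESCs the order went on with PFKM, HK2, HK1, ALDOC and PFKP. In primed ESCs it went on with HK2, HK1, PFKM, ALDOC and PFKP. Neighbours whose library ranges overlapped were SLC2A3 and LDHA, PFKM and HK2, HK2 and HK1, and ALDOC and PFKP in dome-shaped ESCs. In primed ESCs they were HK2 and HK1, and HK1 and PFKM, which averaged 52.2, 51.0 and 50.8 RPKM in that order. Among all tested genes the members' levels lay between the 42.9 percentile (PFKP) and the 99.4 percentile (PKM).

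For the member with the smallest adjusted p in each direction, the genes most alike over the 8 libraries were looked up among 6369 tested genes with a symbol and a mean of at least 5 RPKM. Pearson's r of log2(RPKM + 1) is given as a description, and these points share the group difference and the library depth. HK1 was most like IL1RAP, an interleukin receptor subunit (r = 0.987), RAB20, a small GTPase (r = 0.981), and ARPC1B, a subunit of the actin-nucleating Arp2/3 complex (r = 0.981). LDHA was most like STRADA, a partner of the kinase LKB1 (r = 0.982), RHOT1, a mitochondrial GTPase (r = 0.977), and CHMP5, a subunit of the ESCRT-III membrane complex (r = 0.975).

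The members were set beside 10 lists of other glucose metabolism genes, with 134 genes listed, 120 found and 90 tested. Of those 90, 7 were called higher in dome-shaped ESCs, 7 lower and 76 not called, with a median log2 fold change of -0.06. These shares lie near the background of 6.38% higher and 7.96% lower. Of 5 other glucose transporters tested, 0 were called. Of 15 other glycolysis enzymes tested, 1 was called higher and 13 were not called, with a median of -0.01.

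ENO3, the enolase known from muscle, had 286, 204, 223 and 130.4 RPKM in dome-shaped libraries, against 111, 102, 75.9 and 86.2 RPKM in primed libraries. The groups did not overlap, and dome-shaped replicate 4 lay nearest to the primed values. Its log2 fold change was 1.12 (SE 0.22, limma adjusted p = 0.0122; 1.34 without dome-shaped replicate 4), and a second row of the same name had 0.97 (limma adjusted p = 0.0245). Whether rows of the enolase genes share reads was not tested. No row was paired with ENO1, the enolase of most tissues, by the naming rule. One row (ENSMMUG00000022947), looked up after the values were seen, had an unnamed best match and human enolase 1 among its other matches. It averaged 1286 ± 128 RPKM in dome-shaped and 1262 ± 37.0 RPKM in primed ESCs (SD, n = 4 each; log2 fold change 0.02, limma adjusted p = 0.883). Of 7 striated muscle markers found, 4 were tested, with 1 called higher and 1 lower. DES, an intermediate filament protein, had a log2 fold change of 1.73 with overlapping groups (limma adjusted p = 0.034). TNNT2, a cardiac troponin subunit, averaged 3.98 ± 0.34 RPKM in dome-shaped and 12.1 ± 2.98 RPKM in primed ESCs (SD, n = 4 each; log2 fold change -1.37, limma adjusted p = 0.00262), without overlap. MYH7, MYOG and MYOD1 were under 1 RPKM in every library. ACTC1 (log2 fold change -0.27, limma adjusted p = 0.539) and MYL7 (0.25, limma adjusted p = 0.601) were not called. The summed level of these markers was 184 to 306 RPKM in dome-shaped and 108 to 227 RPKM in primed libraries. Most of each sum was DES and ACTC1, and the part of these markers in the ENO3 result was not tested.

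GAPDH, the dehydrogenase of the middle of glycolysis, averaged 2614 ± 262 RPKM in dome-shaped and 2777 ± 135 RPKM in primed ESCs (SD, n = 4 each; log2 fold change -0.09, limma adjusted p = 0.527). ALDOA had a log2 fold change of -0.10 (limma adjusted p = 0.541) and PFKL also -0.10 (limma adjusted p = 0.635).

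Around pyruvate, 0 of 6 lactate and pyruvate transporters tested were called. SLC16A1 (MCT1), a carrier of lactate in both directions, averaged 136 ± 12.6 RPKM in dome-shaped and 147 ± 20.7 RPKM in primed ESCs (SD, n = 4 each; limma adjusted p = 0.549). SLC16A3 (MCT4), an exporter of lactate known from glycolytic cells, had 22.9, 4.22, 4.61 and 5.75 RPKM in dome-shaped libraries, against 9.15, 18.6, 24.7 and 15.5 RPKM in primed libraries. Dome-shaped replicate 1 alone lay inside the primed range. The log2 fold change of SLC16A3 was -1.04 (limma adjusted p = 0.172), and -1.55 without dome-shaped replicate 1, where it was called (limma adjusted p = 0.0173). The other fits that left out 1 library gave -1.29 to -0.82, none called. In the pyruvate dehydrogenase list 1 of 8 tested genes was called, DLAT, the acetyltransferase subunit of the complex. DLAT averaged 69.2 ± 3.01 RPKM in dome-shaped and 54.9 ± 0.349 RPKM in primed ESCs (SD, n = 4 each; log2 fold change 0.33, limma adjusted p = 0.0111, and 0.0523 with the number in the sample titles as a replicate block). PDK1, a kinase that inhibits the complex, was paired with no row.

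In the pentose phosphate pathway, which branches off after hexokinase and makes NADPH and ribose, 2 of 8 tested genes were called, both higher. PGD, the dehydrogenase of 6-phosphogluconate, had 254, 323, 379 and 303 RPKM in dome-shaped libraries, against 215, 233, 209.9 and 221 RPKM in primed libraries. TKT, the transketolase that links the pathway to glycolysis, had 299, 239, 289 and 258 RPKM in dome-shaped libraries, against 205, 214, 204 and 207 RPKM in primed libraries. For both, every dome-shaped library was higher than every primed one. The log2 fold change was 0.50 for PGD (SE 0.11, limma adjusted p = 0.0197) and 0.38 for TKT (SE 0.08, limma adjusted p = 0.0165). PGD was no longer called without dome-shaped replicate 2 (limma adjusted p = 0.0574) or primed replicate 3 (0.0535), nor TKT without dome-shaped replicate 3 (0.0506) or with the replicate block (0.0597).

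Genes of glucose release and storage held the called gene with the smallest adjusted p of these lists. UGP2, which makes UDP-glucose for glycogen and glycan synthesis, had 54.8, 56.5, 45.8 and 80.6 RPKM in dome-shaped libraries, against 166, 146, 159.9 and 175 RPKM in primed libraries. Dome-shaped replicate 4 was the highest of its group and still far below every primed library. UGP2 had a log2 fold change of -1.46 (SE 0.15, limma adjusted p = 0.00158), and -1.61 without dome-shaped replicate 4. Of 15 glycogen genes tested, 1 was called lower (UGP2) and 1 higher. The higher one was PHKA1, a regulatory subunit of phosphorylase kinase, with 3.45 ± 1.4 RPKM in dome-shaped and 1.44 ± 0.247 RPKM in primed ESCs (SD, n = 4 each; log2 fold change 0.83, limma adjusted p = 0.0342). PHKA1 was called in 4 of the 8 fits that left out 1 library and not with the replicate block (limma adjusted p = 0.104).

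Of 5 gluconeogenesis genes tested, 2 were called lower. G6PC3, the widely expressed glucose-6-phosphatase catalytic subunit, had 32.3, 43.2, 36.5 and 54.3 RPKM in dome-shaped libraries, against 65.5, 66.1, 74.4 and 71.0 RPKM in primed libraries (log2 fold change -0.75, SE 0.14, limma adjusted p = 0.0119; -0.88 without dome-shaped replicate 4). Here too dome-shaped replicate 4 lay nearest to the primed libraries, and the groups did not overlap. FBP1, fructose-1,6-bisphosphatase, averaged 0.199 ± 0.0974 RPKM in dome-shaped and 1.65 ± 0.463 RPKM in primed ESCs (SD, n = 4 each; log2 fold change -1.13, limma adjusted p = 0.00553). FBP1 passed the filter on low values through the primed libraries alone, so its presence among the tested genes already depended on the difference.

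**Figure D4:**
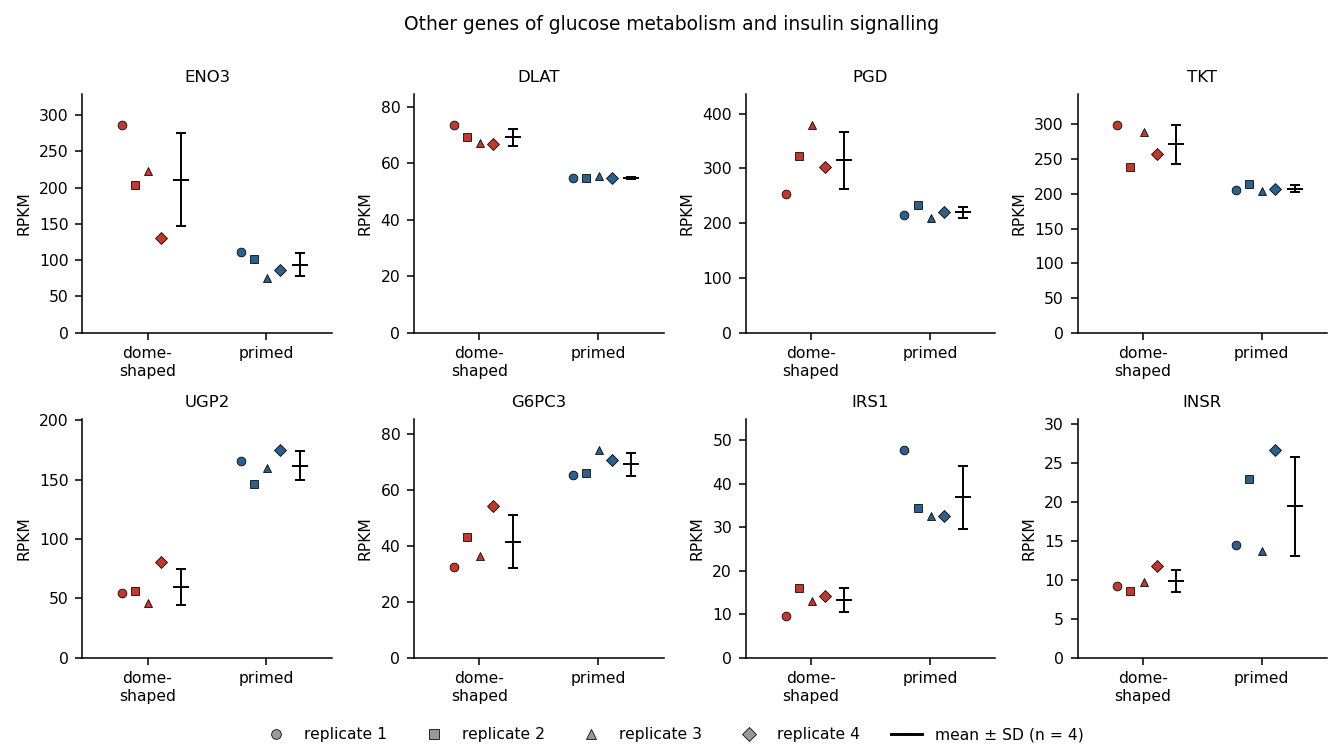
RPKM in each library of 8 other glucose metabolism and insulin signalling genes that were called, dome-shaped in red on the left and primed in blue on the right, with symbols for the replicate number and bars for mean ± SD (n = 4). ENO3, DLAT, PGD and TKT lie higher in every dome-shaped library than in any primed one, and UGP2, G6PC3, IRS1 and INSR lie lower, with the IRS1 and UGP2 groups far apart.

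Among 21 tested regulators of glycolysis genes, 2 were called higher and 3 lower, with a median log2 fold change of -0.11. IRS1, the adaptor that carries the signal of the insulin and IGF1 receptors, had 9.46, 16.1, 13.1 and 14.1 RPKM in dome-shaped libraries, against 47.7, 34.4, 32.6 and 32.5 RPKM in primed libraries. The groups lay far apart, and the highest dome-shaped value was below the lowest primed value by more than the spread of the dome-shaped libraries. Its log2 fold change was -1.42 (SE 0.17, limma adjusted p = 0.00228). INSR, the insulin receptor, averaged 9.78 ± 1.42 RPKM in dome-shaped and 19.4 ± 6.35 RPKM in primed ESCs (SD, n = 4 each; log2 fold change -0.88, limma adjusted p = 0.0265). INSR was called in 3 of the 8 fits that left out 1 library and not with the replicate block (limma adjusted p = 0.0801).

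The remaining calls of that list were small and near the threshold. VHL, the ubiquitin ligase subunit that marks HIF1A for degradation, averaged 28.5 ± 2.87 RPKM in dome-shaped and 19.9 ± 3.32 RPKM in primed ESCs (SD, n = 4 each; log2 fold change 0.51, limma adjusted p = 0.0318). EGLN1, the prolyl hydroxylase that precedes VHL in oxygen sensing, averaged 9.66 ± 1.6 RPKM in dome-shaped and 6.11 ± 1.12 RPKM in primed ESCs (SD, n = 4 each; log2 fold change 0.58, limma adjusted p = 0.0429). LIN28B, an RNA-binding protein that represses let-7, averaged 61.2 ± 10.0 RPKM in dome-shaped and 82.5 ± 7.93 RPKM in primed ESCs (SD, n = 4 each; log2 fold change -0.43, limma adjusted p = 0.0447). Each of these 3 genes was called in 2 of the 8 fits that left out 1 library. With the replicate block none of them was called (limma adjusted p = 0.097 for VHL, 0.124 for EGLN1 and 0.0901 for LIN28B).

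The transcription factors best known for acting on glycolysis genes were not called. HIF1A averaged 88.4 ± 4.17 RPKM in dome-shaped and 95.8 ± 5.71 RPKM in primed ESCs (SD, n = 4 each; log2 fold change -0.11, limma adjusted p = 0.285). MYC had 3.37, 25.0, 10.8 and 61.5 RPKM in dome-shaped libraries, against 47.8, 63.8, 48.5 and 44.9 RPKM in primed libraries. Dome-shaped replicates 1 to 3 lay below every primed library, and replicate 4 lay among them. MYC had a log2 fold change of -1.61 (SE 0.67, limma adjusted p = 0.135). It was -0.95 without dome-shaped replicate 1 (limma adjusted p = 0.218), and -2.23 without dome-shaped replicate 4, the 1 fit of these 8 in which MYC was called (limma adjusted p = 0.0192). MYCN averaged 87.7 ± 17.2 RPKM in dome-shaped and 112 ± 13.3 RPKM in primed ESCs (SD, n = 4 each; limma adjusted p = 0.12). TXNIP, which curbs glucose uptake and responds to glucose, had 65.3 RPKM in dome-shaped replicate 1 and 13.4 to 25.2 RPKM in the other dome-shaped libraries, against 13.7 to 22.3 RPKM in primed libraries (limma adjusted p = 0.572).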

How the data were processed

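The authors deposited 1 table of RPKM values for 8 libraries, with a query length and protein matches per gene; the percent identity of each match is the authors' own, per the file headers. The submitters' processing notes name TopHat2 2.0.9, Bowtie2 2.0.6 and HTSeq 0.6.1. The genome build is not given in the sources used here, and no coordinates are printed. No strand-specific step is recorded in the labels' protocols. Of 33138 rows, 17 were blank and left out, and 30246 of the rest carry identifiers beginning ENSMMUG, the Ensembl prefix of rhesus macaque genes.

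A member was the row with its symbol, or else the row whose best match named its protein at 85% identity or more; of several rows the one with the highest mean was used. Names of other genes came from the table, from RefSeq accessions (T2T-MFA8v1.1 gene table, names only) or from protein names. RPKM times length fell on multiples of 1 value per library, from which reads were implied; 71.6% to 73.4% of low values were whole within 0.01 of a read, too few for a count test. Replicate pairs differed beyond sampling noise (chi-square per degree of freedom at least 7.67 over genes with at least 20 implied reads), and each library was treated as a replicate of its own.

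The test took genes that reached 1 RPKM in 4 or more of the 8 libraries, on log2(RPKM + 1), with limma 3.58.1 in R 4.3.3 (mean trend, no covariates, two-sided, Benjamini-Hochberg over all genes tested, threshold 0.05). This scale understates the changes of low genes. The script was tested on simulated data. Members and lists were chosen with earlier results of these data known. Named were the 10 members, up to 6 called genes of each list, 11 glucose genes whatever their p, and the 3 genes most like the top member in each direction. Of the genes so named, 1 is not reported here. Alternatives were leaving out each library, a replicate block, summed rows, no mean trend, median-of-ratios scaling, quantile normalization, a minimum mean of 5 RPKM or no filter, and pseudocounts of 0.1 and 0.5.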

Additional observations from a re-analysis of the deposited data

How the results depend on the processing

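The member calls, 1 higher and 2 lower, were the same genes in all settings run. For 34 named genes, 551 alternative values were computed: 506 kept direction and side of the threshold, 42 lost the call, 2 gained it (MYC and SLC16A3) and 1 reversed, TXNIP, uncalled throughout, at -0.08 without dome-shaped replicate 1 (-0.08 to 0.66 over the fits without 1 library). Leaving out 1 library gave 381 to 1289 genes higher and 655 to 1441 lower among all genes tested (995 and 1242 with all libraries), and 3 to 8 higher and 5 to 11 lower among the other glucose metabolism genes (7 and 7). All-gene counts moved by over 1.5 times without dome-shaped replicate 2 (399 higher, 689 lower), dome-shaped replicate 3 (442, 686), primed replicate 2 (381, 655), primed replicate 3 (516 higher) and primed replicate 4 (487, 757). Counts of other glucose genes did so without dome-shaped replicate 2 (3 higher) or 3 (4 higher), primed replicate 2 (4 higher) or 3 (3 higher), and dome-shaped replicate 4 (11 lower). The cause was not tested.

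With the number after CES in the titles as a replicate block, 303 genes were higher and 593 lower, and 2 and 4 of the other glucose genes. SLC2A1 (-0.95, limma adjusted p = 0.0267), HK1 (-0.84, 0.0231) and LDHA (0.56, 0.0303) kept their calls. Deviations of same-numbered libraries correlated between -0.0975 and 0.125, and dome-shaped replicate 1 correlated best with primed replicate 4 (0.201). These correlations do not show that the number pairs the libraries, nor that it does not mark a shared cell line. With 4 libraries per group and implied depths of 14400000 to 18080000 reads, spread between libraries and not read depth set the precision for all 10 members. PFKP, with as few as 85.8 implied reads in a library, was the least deeply read.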

Other observations

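In both groups, replicate 1 had the most glucose metabolism genes at the edge of its group, a count made after the values were seen. Of 100 tested genes (members and the other lists), dome-shaped replicate 1 was at least 1.5 times the next library of its group in 9: PGAM2, ENO2, PFKFB4, SLC16A3, PYGM, PHKA1, PHKB, TXNIP and ARRDC4. MYC was the 1 gene low in it by the same measure. Primed replicate 1 was low in 7 genes, PFKP, SLC2A8, SLC2A11, ENO2, SLC16A3, PC and GYG2, and high in 1, GBE1. Dome-shaped replicate 4 was high in 3 (FBP1, MYC and KLF4) and low in 2 (ENO3 and H6PD). No other library exceeded a count of 1 in either direction.

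Markers of other cell types were low or mixed. TEK, a receptor known from endothelium, averaged 20.6 ± 3.23 RPKM in dome-shaped and 1.53 ± 1.52 RPKM in primed ESCs (SD, n = 4 each). Its log2 fold change was 3.24 (limma adjusted p = 0.00128). The 5 endothelial markers summed to 18.6 to 30.9 RPKM in dome-shaped and 5.16 to 10.3 RPKM in primed libraries. Most of each dome-shaped sum was TEK. CDH5 (log2 fold change 0.07, limma adjusted p = 0.899) and VWF (log2 fold change -0.46, limma adjusted p = 0.456) were not called. PECAM1 was below the filter on low values, and its mean, like that of VWF, was lower in dome-shaped ESCs. CLDN5 was under 1 RPKM in every library. Of 10 fibroblast markers, 5 were tested, with FBN1 called higher and PDGFRB called lower. Over all genes tested, 14.3% were called in either direction. The sums were 36.2 to 45.8 RPKM in dome-shaped and 34.8 to 125 RPKM in primed libraries. Most of the highest sum was COL1A2 (53.3 RPKM) and THY1 (52.2 RPKM) in primed replicate 1, neither called. LUM reached 11.8 RPKM in primed replicate 3. FBN1, COL3A1, COL1A1 and DCN had the higher mean in dome-shaped ESCs, and the rest in primed ESCs. DCN, POSTN and S100A4 stayed under 1 RPKM in every library. Of 6 neural markers found, 3 were tested and 1 was called higher, FABP7, which averaged 4.07 RPKM in dome-shaped and 0.781 RPKM in primed ESCs. FABP7 passed the filter on low values through the dome-shaped libraries alone, so its presence among the tested genes already depended on the difference. The neural sums were 239.9 to 359.5 RPKM in dome-shaped and 209 to 428 RPKM in primed libraries. Most of each sum was NES, which was not called and averaged 274 RPKM in dome-shaped and 278 RPKM in primed ESCs. The 3 blood markers found summed to 0.772 to 3.8 RPKM in dome-shaped and 0.722 to 1.97 RPKM in primed libraries. The part of these markers in the glycolysis results was not tested.

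Some listed genes missed the threshold although their groups did not overlap. MPC2, a subunit of the mitochondrial pyruvate carrier, averaged 27.5 ± 2.4 RPKM in dome-shaped and 33.9 ± 3.21 RPKM in primed ESCs (SD, n = 4 each; log2 fold change -0.29, limma adjusted p = 0.0736). GPI, the isomerase between hexokinase and phosphofructokinase, averaged 320.5 ± 21.7 RPKM in dome-shaped and 276 ± 18.5 RPKM in primed ESCs (SD, n = 4 each; log2 fold change 0.22, limma adjusted p = 0.09). LIN28A, a relative of LIN28B, had a log2 fold change of -0.33 (limma adjusted p = 0.0608). These 3 genes were picked after their values were seen.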
